A study of Mus musculus with 23 samples.

Results

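Endothelial and angiogenic genes were followed in muscle of mice after spaceflight. The genes were the 10 named Pecam1, Cdh5, Kdr, Flt1, Tek, Tie1, Vwf, Eng, Vegfa and Angpt1, and every probe set whose platform annotation names exactly 1 of them was taken. This gave 15 probe sets out of 22626, and 10 genes out of the 12393 for which a probe set names a single gene. Flt1 had 3 probe sets, Cdh5, Eng and Vegfa had 2, and the other genes had 1. Where a gene had several, the one with the highest mean over all arrays is called its lead probe set. Values are log2 expression per probe set, so a difference of 1 is a 2-fold change. Changes are compared between samples within a probe set, and no gene is called more abundant than another. A percentile by mean, where given, says only how bright a probe set reads on these arrays.

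All mice were adult C57BL/N6 males (the labels give Male C57/BL6 mice). BF mice had flown for 30 days in the Bion M1 biosatellite and were sampled within hours after landing, BG mice lived for 30 days on the ground in a replicate of that habitat, and FC mice lived for 30 days in a standard animal facility. Longissimus dorsi, a back muscle that extends the spine, was measured in 5 BF, 5 BG and 5 FC samples, and tongue in 3 BF, 3 BG and 2 FC samples, with 1 array per sample. The sources used here do not tell whether a mouse gave both muscles.

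Endothelial cells line blood vessels, and in muscle they form the dense capillary bed that runs along the fibres. Vegfa encodes the growth factor that drives capillary growth, and muscle fibres are a major source of it. Its receptors are Kdr (VEGFR2), which carries most of the growth signal, and Flt1 (VEGFR1), which binds Vegfa tightly and, as a secreted form, traps it. Angpt1 is the ligand that keeps vessels quiet through the receptor Tek (Tie2), and Tie1 is the related receptor that modulates Tek. Eng is a co-receptor for TGF-beta family ligands on endothelium, Cdh5 (VE-cadherin) and Pecam1 hold endothelial cells together at their junctions, and Vwf is the clotting protein that endothelial cells store.

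The arrays were comparable in scale, with medians from 6.42 to 6.61. The mean over the lead probe sets of the 10 genes ranged from 6.95 to 7.54 in longissimus dorsi. Its lowest array was BG replicate 4, in which 9 of the 10 genes lay below the mean of their group, by 0.31 on average, and its highest was BF replicate 5, in which none did. BG replicate 5 of longissimus dorsi had the widest spread around its group over all probe sets (SD 0.356, against 0.103 to 0.254 in the other arrays). It also had the highest macrophage marker level of the 23 arrays, 9.54. The mean of 37 endothelial marker genes, which include the 10 genes, ranged from 7.45 to 7.90 in longissimus dorsi and from 7.38 to 7.63 in tongue. Muscle fibre markers averaged 12.11 to 14.05 over the groups, and all 10 were above the median probe set in each. Oral epithelium markers averaged 5.24 to 5.39 in longissimus dorsi and 11.56 to 11.64 in tongue, so the tongue samples held epithelium as well as muscle. In whole tissue, fewer cells of a type and less RNA per cell cannot be told apart.

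Promoter sequences are shown for Tie1 and Vegfa because these genes differed between BF and BG mice in longissimus dorsi and the RefSeq sequences used here cover them (6 of the 10 genes were covered; Pecam1, Cdh5, Vwf and Angpt1 were not). Each is the 250 bases before a RefSeq transcription start on the GRCm38.p6 build, printed on the strand of the gene. Capitals mark the core GGAAG of the binding motif of ETS factors, a family with main regulators of endothelial genes, or CTTCC, its reverse complement. The Tie1 sequence lies on the minus strand at chr4:118489850-118490099, and the Vegfa sequence on the minus strand at chr17:46032378-46032627.
Tie1: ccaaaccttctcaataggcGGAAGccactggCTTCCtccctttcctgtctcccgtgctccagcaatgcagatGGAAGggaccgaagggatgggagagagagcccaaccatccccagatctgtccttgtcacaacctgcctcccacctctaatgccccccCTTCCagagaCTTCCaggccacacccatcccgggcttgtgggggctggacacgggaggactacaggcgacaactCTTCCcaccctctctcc
Vegfa: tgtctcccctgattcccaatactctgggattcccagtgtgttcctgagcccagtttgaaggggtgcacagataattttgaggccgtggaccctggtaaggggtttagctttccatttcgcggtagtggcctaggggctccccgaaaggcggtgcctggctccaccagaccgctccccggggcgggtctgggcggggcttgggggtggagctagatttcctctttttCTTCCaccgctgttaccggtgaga
The Tie1 window held 6 ETS cores and the Vegfa window 1. Of 32851 promoter windows of the same length, 64.1% held at least 1 such core and 0.344% held 6 or more. The core of the hypoxia response element (ACGTG or GCGTG, on either strand) was in neither window, and 38.6% of all windows held it. The window of a second RefSeq start of Vegfa, downstream of this one, held it at 2 places. Being downstream of the first start, that window may hold transcribed sequence of the gene. Its 2 places are therefore not read as promoter elements. These counts describe letters in a window and do not show binding.

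**Figure D1:**
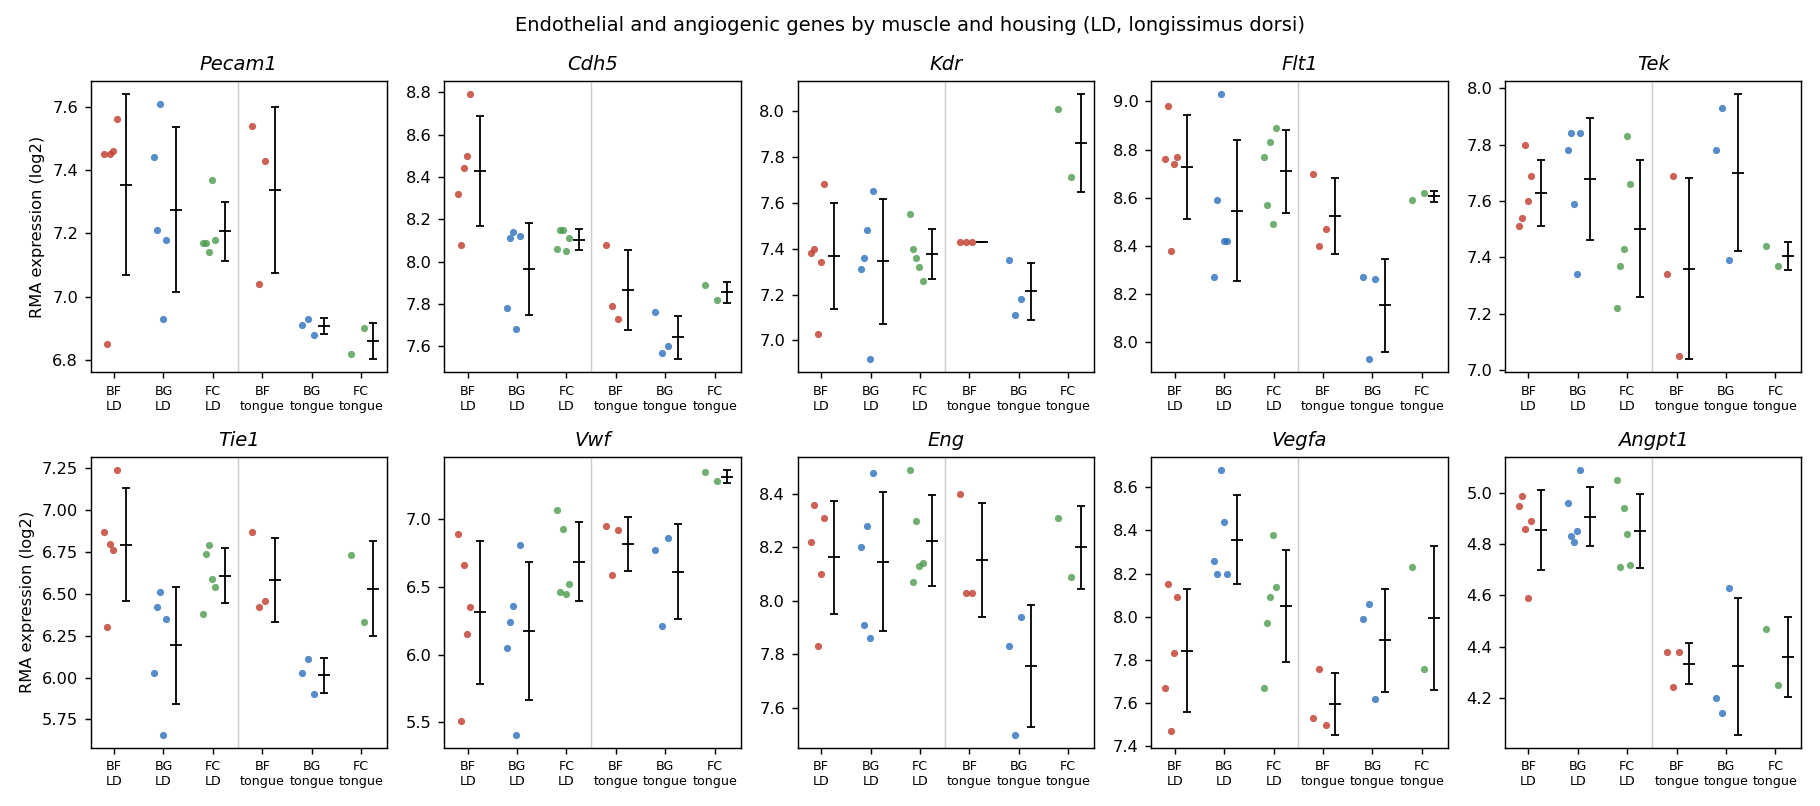
Log2 expression of the lead probe set of each of the 10 genes (vertical axes, each with its own range) in BF, BG and FC samples of longissimus dorsi (LD) and tongue. Points are single arrays and bars give the mean and SD. In LD the 5 BF points of Vegfa lie below the 5 BG points, while Tie1 and Cdh5 lie mostly above BG, and Kdr is highest in the 2 FC tongue samples.

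Flown mice had less Vegfa signal and more Tie1 and Cdh5 signal than BG mice in longissimus dorsi. Both groups lived for 30 days in the same type of habitat, and only BF mice flew. The comparison takes in launch, landing and the hours before sampling, which cannot be told apart from time in flight. Of the 15 probe sets 3 passed, 2 higher and 1 lower in BF. A probe set is said to pass, rise or fall when its adjusted p was under 0.05 in limma, with Benjamini-Hochberg adjustment over all probe sets. In this comparison 10.2% of all probe sets passed, 6.41% higher and 3.83% lower, so 3 of 15 was not far above the general share. The median change of the 10 genes was 0.05, against -0.037 over all genes. None of the 15 changed by more than 2-fold here or in any other comparison.

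Vegfa probe set 1420909_at read 7.67, 8.15, 7.47, 7.83 and 8.09 in the 5 BF samples of longissimus dorsi. In the BG samples it read 8.26, 8.20, 8.68, 8.44 and 8.20. All BF values were below all BG values. Vegfa fell by 0.52 on the log2 scale (SE 0.147, 1.43-fold, adjusted p = 0.0281). The FC samples, at 7.67, 7.97, 8.09, 8.38 and 8.14, overlapped with both. The second Vegfa probe set, 1451959_a_at, differed by -0.18 between BF and BG (adjusted p = 0.333), with values of 6.11 to 6.67 in BF and 6.26 to 6.65 in BG. The call of 1420909_at was lost when BF replicate 1, 3 or 4 or BG replicate 3 or 4 was left out (adjusted p = 0.0573 to 0.0859), with changes from -0.59 to -0.42 over all alternatives.

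Tie1 was 6.87, 6.30, 6.80, 6.76 and 7.24 in BF and 6.03, 6.42, 6.51, 5.66 and 6.35 in BG. The groups overlapped, since BF replicate 2 lay below 3 of the BG samples. The rise was 0.60 (SE 0.161, 1.52-fold, adjusted p = 0.0212). It no longer passed without BF replicate 5, BG replicate 1 or BG replicate 4 (adjusted p = 0.0671, 0.0616 and 0.0652). FC samples read 6.38 to 6.79, and FC vs. BG gave 0.41 for Tie1 (adjusted p = 0.11), while BF vs. FC gave 0.19 (adjusted p = 0.66).

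Cdh5 probe set 1433956_at was 8.32, 8.08, 8.44, 8.50 and 8.79 in BF. It was 7.78, 8.11, 8.14, 7.68 and 8.12 in BG. The other 4 BF samples were above every BG sample, and BF replicate 2 lay among them. Cdh5 rose by 0.46 (SE 0.115, 1.37-fold, adjusted p = 0.0144) and passed under all 33 alternatives. In FC the 5 values of this probe set lay close together, from 8.05 to 8.15, and BF vs. FC gave 0.32 (adjusted p = 0.136). The second Cdh5 probe set, 1422047_at, differed by 0.22 between BF and BG (adjusted p = 0.18).

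The other receptors and the ligand of Tek gave small differences between BF and BG in this muscle. Kdr differed by 0.02, Tek by -0.05, Eng by 0.02 and -0.14 in its 2 probe sets, and the 3 probe sets of Flt1 by 0.07 to 0.18. Angpt1, at 4.59 to 4.99 in BF and 4.81 to 5.09 in BG, differed by -0.05, with a 95% interval from -0.27 to 0.16. Its probe set reads low on the arrays, at the 21.5 percentile of all probe sets by mean, and whether it lies above background is unknown. Pecam1 differed by 0.08 and Vwf by 0.14, the latter with an interval from -0.34 to 0.62. None of these passed. BF replicate 2 was the lowest BF sample for Pecam1 (6.85), Vwf (5.51), Tie1 and the lead probe set of Cdh5.

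Markers of cell types were read in the same samples. The 37 endothelial markers averaged 7.54 to 7.90 in BF and 7.45 to 7.83 in BG. They include the 10 genes, so their mean is not a separate measure of endothelium. The 27 endothelial genes outside the 10 had a median change of 0.02. Macrophage markers averaged 6.69 to 8.20 in BF and 7.38 to 9.54 in BG, with a median change of -0.66 over 14 genes, of which 0 passed in limma and 8 were at an unadjusted p under 0.05, as were 24.9% of all probe sets. Mast cell markers averaged 5.24 to 5.92 in BF and 5.66 to 7.95 in BG, with a median change of -0.79. Of the 6 genes 1, Cpa3, fell, while all 6 were at an unadjusted p under 0.05 in limma. Fibroblast markers averaged 8.71 to 10.25 and 9.42 to 10.65, with a median change of -0.32. Of the 8 genes 1, Thy1, fell, and 2 were at an unadjusted p under 0.05 in limma. These counts stand against the 10.2% of all probe sets that passed. In the macrophage, mast cell and fibroblast lists the highest BG sample was replicate 5 each time, the array with the widest spread. The highest BF sample was replicate 1 in each. For mast cells the BG mean was 6.39, below the 7.95 of replicate 5. The part of these markers in the changes of Vegfa, Tie1 and Cdh5 was not tested. With BF replicate 1, BG replicate 5 and FC replicate 1 left out together, the most scattered array of each group in this muscle, all 3 passed (adjusted p = 0.0106 to 0.028).

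**Figure D2:**
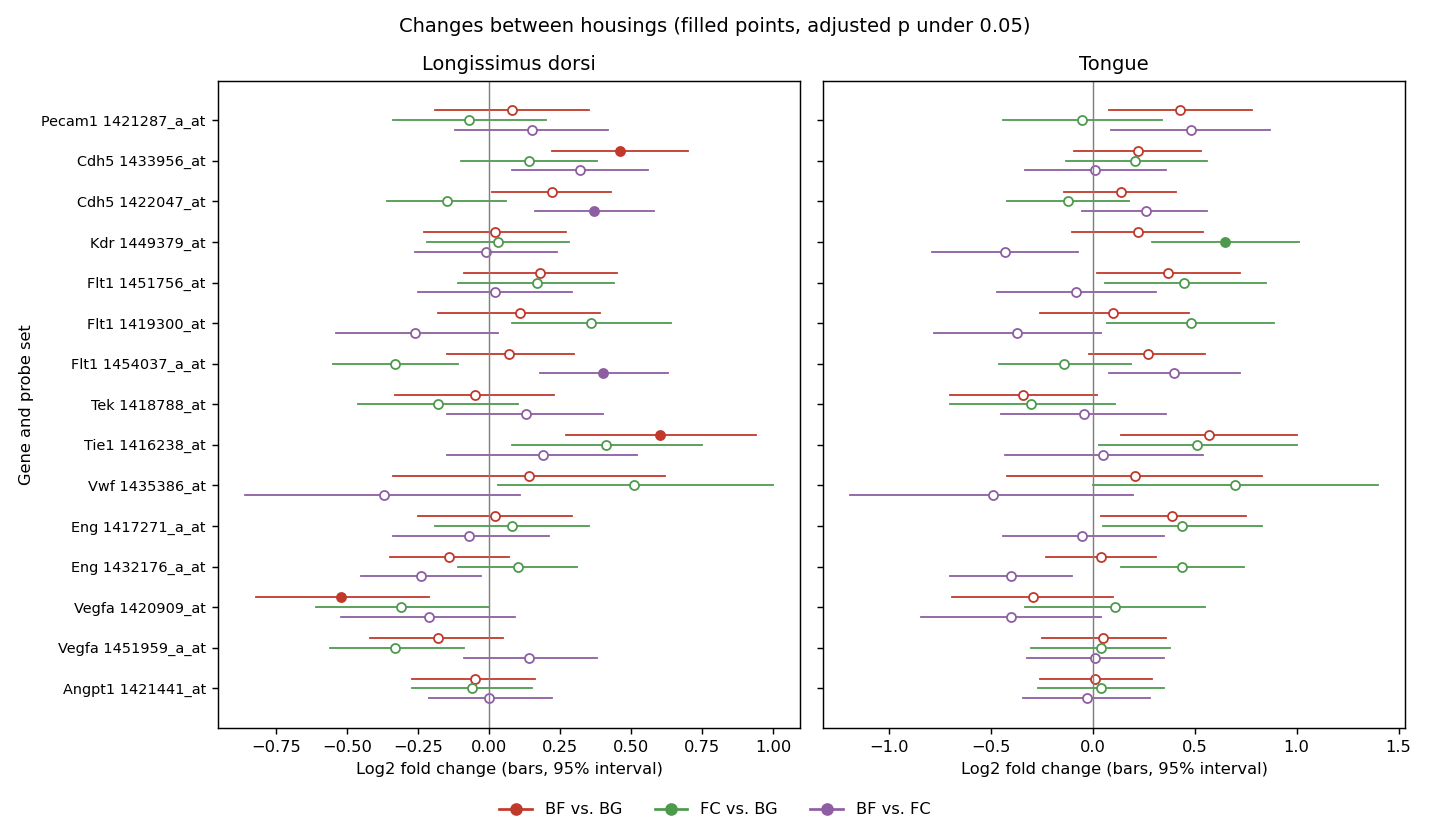
Log2 fold changes (horizontal axes) of the 15 probe sets between housings in longissimus dorsi and tongue, with 95% intervals from limma. Filled points passed: Tie1, Cdh5 and Vegfa in BF vs. BG and 1 probe set each of Cdh5 and Flt1 in BF vs. FC of longissimus dorsi, and Kdr in FC vs. BG of tongue.

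Between BF and FC mice, 1 probe set of Cdh5 and 1 of Flt1 were higher after flight in longissimus dorsi. This was 2 of 15 probe sets, while 3.66% of all probe sets passed. The comparison shares its BF samples with BF vs. BG. Cdh5 1422047_at was 4.76, 4.70, 4.63, 4.52 and 4.98 in BF and 4.48, 4.44, 4.34, 4.14 and 4.37 in FC. All BF values were above all FC values, and the rise was 0.37 (SE 0.102, adjusted p = 0.0445). This probe set reads low on the arrays, at the 17 percentile of all probe sets by mean, and it passed in 14 of 31 alternatives only. Flt1 1454037_a_at was higher in BF by 0.40 (SE 0.108, adjusted p = 0.0352) and passed in 23 of 31 alternatives. It too reads low, at the 26.9 percentile. When longissimus dorsi was fitted alone neither passed (adjusted p = 0.0642 for Cdh5 and 0.0703 for Flt1).

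Neither Cdh5 nor Flt1 passed with its lead probe set in BF vs. FC. Flt1 1451756_at, the lead, differed by 0.02, and Vegfa differed by -0.21 and 0.14 in its 2 probe sets. The median change of the 10 genes was 0.01, against -0.037 over all genes.

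Between the ground groups, FC and BG, 0 of 15 probe sets passed in longissimus dorsi in limma, where 8.95% of all probe sets did. At an unadjusted p under 0.05 there were 6 of 15, as against 24.5% of all probe sets, and contrasts without moderation also called 0. The largest differences were 0.51 for Vwf (adjusted p = 0.174), 0.41 for Tie1 and 0.36 for Flt1 1419300_at (adjusted p = 0.10). Both Vegfa probe sets were lower in FC, by values of -0.31 and -0.33 (adjusted p = 0.203 and 0.0701). The median change was 0.06 for the 10 genes and -0.004 for all genes. The count of 0 was not stable, since it became 3 without BG replicate 5, with array weights, or without the most scattered array of each group.

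Of the 3 Flt1 probe sets, 1454037_a_at went apart from both others between FC and BG samples of longissimus dorsi. Probe set 1419300_at was 8.46, 8.99, 9.02, 8.81 and 8.90 in FC, 8.32, 8.30, 8.86, 8.25 and 8.65 in BG and 8.34, 8.55, 8.50, 8.81 and 8.70 in BF. Probe set 1454037_a_at was 4.98, 5.06, 5.01, 4.73 and 5.03 in FC, 5.34, 5.40, 5.56, 4.98 and 5.18 in BG and 5.20, 5.64, 5.36, 5.37 and 5.26 in BF. The first was high in FC and the second low, and for the second all FC values were below all BF values. The difference between these probe sets within an array was 3.87 ± 0.233 in FC, 3.18 ± 0.235 in BG and 3.21 ± 0.226 in BF (SD, n = 5 each). FC differed from BG by 0.69 and BF from FC by -0.66 (exact permutation test over samples, two-sided, p = 0.00794 in each, the smallest that 252 splits allow; adjusted p = 0.0476 over 18 such tests). The lead probe set minus 1454037_a_at also differed between FC and BG, by 0.50 (exact permutation p = 0.00794, adjusted p = 0.0476). BF and BG differed by 0.03 in the first of these quantities, with an exact permutation p of 0.81. After quantile normalization within the muscle the adjusted p values were 0.0714, 0.0714 and 0.107 (exact permutation tests), and the changes kept their sign in all 16 alternatives, at 0.56 to 0.79, -0.76 to -0.58 and 0.37 to 0.56. The p of each is the smallest that the splits allow, and the adjusted p lies just under 0.05. A small change in 1 of these tests can therefore move all of them over it. The adjusted p under the alternatives (0.0357 to 0.107, exact permutation tests) thus does not by itself show whether a single difference is stable. The lead probe set minus 1454037_a_at in FC vs. BG was itself weaker after quantile normalization. Its adjusted p of 0.107 was above the 0.0714 of the others (exact permutation tests). Its groups overlapped in 1 of the 16 alternatives, and those of the others in 0. The lead probe set and 1419300_at did not go apart. Their difference changed by -0.20 in FC vs. BG, 0.27 in BF vs. FC and 0.08 in BF vs. BG. The adjusted p values were 0.39, 0.286 and 0.776 (exact permutation tests). Each Flt1 difference with an adjusted p under 0.05 thus involved 1454037_a_at. That probe set reads low, at the 26.9 percentile of all probe sets by mean. All tests between probe sets were added after the values had been seen. The annotation names a different source sequence for each of the 3 probe sets, and which transcript forms they read was not analysed here. A difference within an array shows unequal change and does not show which of the probe sets changed. The order was not particular to this muscle. In tongue the mean of 1419300_at was also highest in FC, at 8.43 against 7.95 in BG and 8.06 in BF. That of 1454037_a_at was lowest in FC, at 4.56 against 4.70 and 4.96. Differences between probe sets were not tested in tongue.

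**Figure D3:**
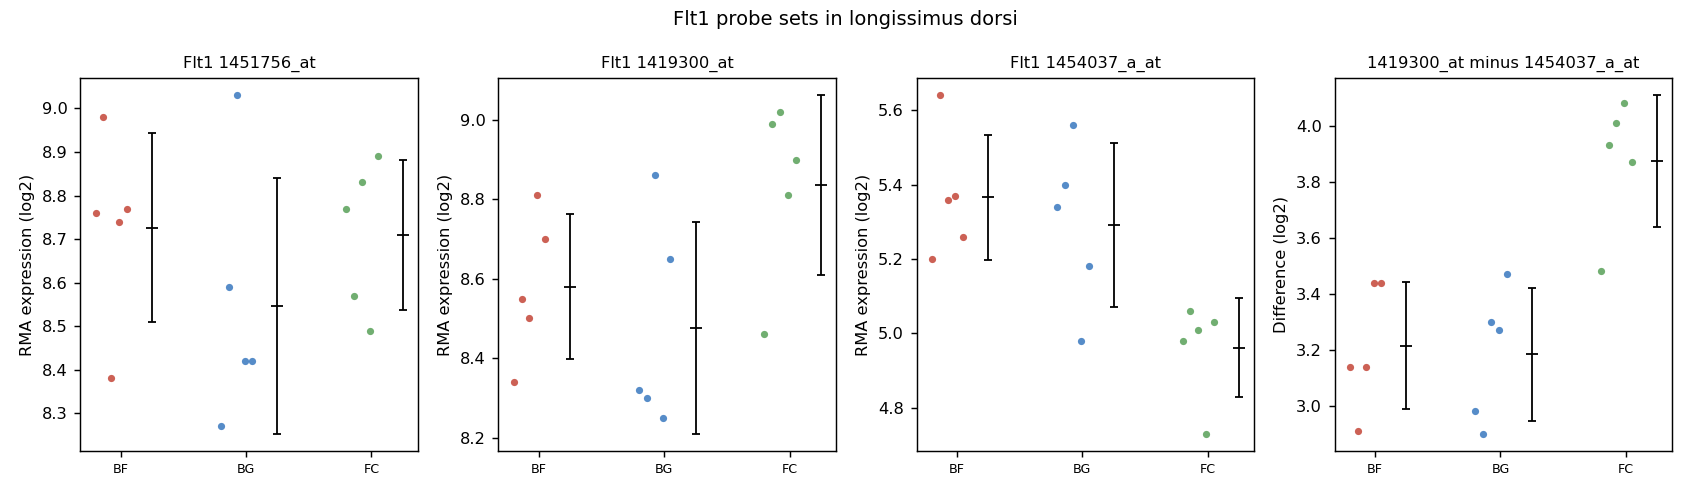
Log2 expression of the 3 Flt1 probe sets in BF, BG and FC samples of longissimus dorsi and, at the right, the difference between 1419300_at and 1454037_a_at in each array. Points are arrays and bars give the mean and SD; the difference averages 3.87 in FC, 3.18 in BG and 3.21 in BF.

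In tongue, Kdr was higher in FC than in BG mice and was the only one of the 15 probe sets to pass between housings. In the FC vs. BG comparison 9.45% of all probe sets passed, 5.13% higher and 4.33% lower. Kdr was 8.01 and 7.71 in the 2 FC samples, 7.35, 7.11 and 7.18 in BG and 7.43 in each of the 3 BF samples. Both FC values were above all BG and BF values of tongue, and above every longissimus dorsi sample. The rise over BG was 0.65 (SE 0.174, 1.57-fold, adjusted p = 0.0218). It did not pass without FC replicate 1 (adjusted p = 0.306) or BG replicate 2 (adjusted p = 0.0893).

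In longissimus dorsi the same Kdr comparison gave 0.03. The difference between the muscles, -0.62, did not pass (unadjusted p = 0.00789, adjusted p = 0.277 in limma). For FC vs. BG, 0.301% of all probe sets differed between the muscles at an adjusted p under 0.05, and 0 of the 15 did (1 at an unadjusted p under 0.05, where 10.1% of all probe sets were).

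No other member passed in FC vs. BG of tongue. Eng differed from BG by 0.44 in both of its probe sets (adjusted p = 0.154 and 0.0561), Flt1 by 0.45 and 0.48 in 2 of its probe sets, Tie1 by 0.51 and Vwf by 0.70 (adjusted p = 0.213). Tek, at -0.30, Flt1 1454037_a_at, at -0.14, Cdh5 1422047_at, at -0.12, and Pecam1, at -0.05, had the other sign, and the rest lay between 0.04 and 0.21. The median over the 10 genes was 0.33, against 0.026 over all genes. At an unadjusted p under 0.05, 7 of 15 probe sets differed, as did 23.3% of all probe sets. Of 27 other endothelial genes 0 passed in limma, 4 were at an unadjusted p under 0.05, and their median change was 0.00. Pericyte and smooth muscle markers averaged 8.43 and 8.44 in FC, 8.08 to 8.16 in BG and 8.13 to 8.50 in BF, and Notch3 and Myh11 rose by 1.08 and 0.80 over BG, 2 of 11 genes. Neither passed without FC replicate 1 (adjusted p = 0.119 and 0.183) or without FC replicate 2 (adjusted p = 0.0662 and 0.0688). Fibroblast markers averaged 10.55 and 10.62 in FC and 10.11 to 10.21 in BG, with 0 of 8 passing in limma and 0 at an unadjusted p under 0.05. Muscle fibre markers averaged 12.10 and 12.13 in FC and 11.91 to 12.98 in BG, with group means of 12.11 in FC and 12.51 in BG. Of these 10 genes 2 rose, Myh4 and Myh1, and 5 were at an unadjusted p under 0.05 in limma. Their median change was -0.04. For these marker genes no test of their part in the Kdr difference was made. This holds for all the marker lists named here.

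BF vs. BG in tongue gave 0 of 15 in limma, with 4 at an unadjusted p under 0.05 (15.4% of all probe sets), 0 without moderation and 1 (Pecam1) with array weights. Only 0.826% of all probe sets passed there. Tie1 was 6.87, 6.42 and 6.46 in BF and 6.03, 6.11 and 5.90 in BG. All BF values were above the BG values, and the difference was 0.57 (SE 0.208, adjusted p = 0.184), a size like that of 0.60 in longissimus dorsi. The difference between the muscles was 0.03 for Tie1, with an adjusted p of 0.977. Pecam1 was 7.54, 7.04 and 7.43 in BF and 6.91, 6.93 and 6.88 in BG, which differed by 0.43 (adjusted p = 0.215). Vegfa 1420909_at differed by -0.29 (adjusted p = 0.485), and Cdh5 by 0.22 and 0.14 in its 2 probe sets. The median over the 10 genes was 0.22, and 0.010 over all genes.

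BF vs. FC in tongue likewise gave 0 of 15 in limma, 4 at an unadjusted p under 0.05 (16.1% of all probe sets), 0 without moderation and 3 with array weights, where 2.24% of all probe sets passed. Kdr differed by -0.43 (adjusted p = 0.214), Pecam1 by 0.48 (adjusted p = 0.204), Flt1 1454037_a_at by 0.40 and Eng 1432176_a_at by -0.40. The median was -0.04 for the 10 genes and -0.025 for all genes. The 3 tongue comparisons share samples in pairs, as do those in longissimus dorsi. In the 2 other tests of a difference between the muscles, BF vs. BG and BF vs. FC, 0 of 15 probe sets passed in limma and 0 reached an unadjusted p under 0.05, while 0.172% and 0.0663% of all probe sets passed and 12.1% and 8.06% reached that unadjusted p. In tongue, 3 samples or fewer a group limit what could be detected.

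Averaged over the housings, 10 of the 15 probe sets differed between longissimus dorsi and tongue, 9 higher and 1 lower in longissimus dorsi. That share was near the background, because 69.8% of all probe sets passed, 45.3% higher and 24.5% lower. The median difference of the 10 genes was 0.20, against 0.142 over all genes. Among the ligands, Angpt1 was 4.59 to 5.09 in longissimus dorsi and 4.14 to 4.63 in tongue, a difference of 0.53 (SE 0.0719, adjusted p = 8.17e-07). Vegfa 1451959_a_at was 6.07 to 6.67 against 5.61 to 5.94, with no overlap over the 23 arrays, and differed by 0.58 (adjusted p = 9.56e-07). Vegfa 1420909_at differed by 0.26 (adjusted p = 0.0314), and this call was lost in 4 of 32 alternatives, all of which leave out 1 tongue array.

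Of the receptors, all 3 Flt1 probe sets were higher in longissimus dorsi, by 0.23, 0.48 and 0.47, while Kdr (-0.14), Tek (0.12), Tie1 (0.16) and Eng (0.14 and 0.16) did not pass. The junction genes were higher as well, Cdh5 by 0.38 and 0.46 in its 2 probe sets and Pecam1 by 0.24. Vwf was the one gene that was lower in longissimus dorsi, by a log2 difference of -0.52 (SE 0.163, 1.44-fold, adjusted p = 0.00703). It ranged from 5.41 to 7.07 there and from 6.21 to 7.35 in tongue. The muscles differed in cell content, as the epithelial and muscle fibre markers given above show, and the part of this in the gene differences was not tested.

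**Figure D4:**
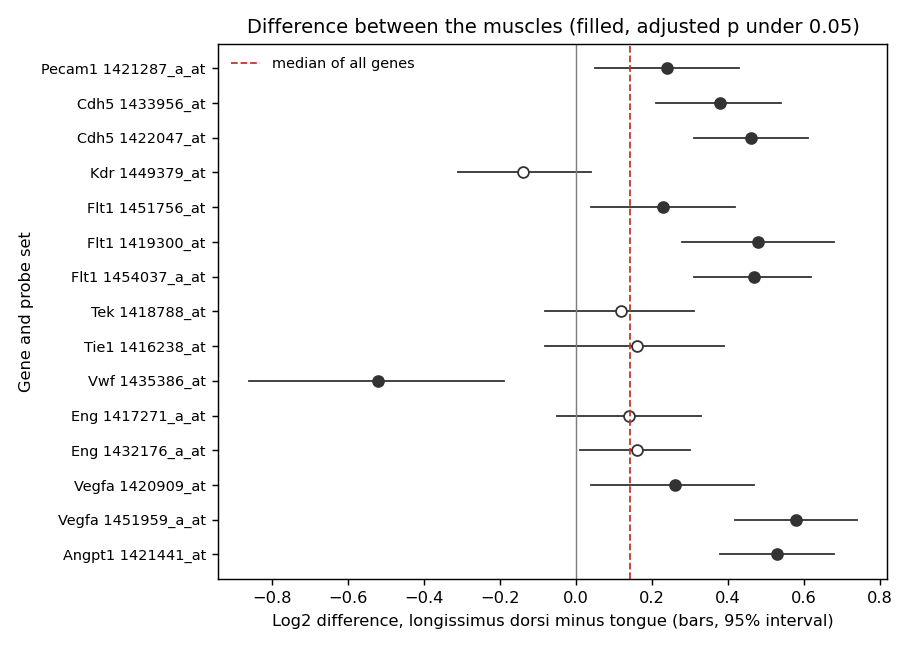
Log2 difference between longissimus dorsi and tongue (horizontal axis), averaged over the 3 housings, for the 15 probe sets with 95% intervals from limma. Filled points passed, and the dashed line marks the median over all genes, 0.142; Vwf is the filled point below 0 and 9 filled points lie above 0.

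Vwf varied most among the members. Its SD within groups was 0.409, higher than that of 95.7% of all probe sets, and its group means spanned 1.14, from BG in longissimus dorsi, the lowest, to FC in tongue, the highest. The samples of FC tongue read 7.35 and 7.28, against 6.95, 6.59 and 6.92 in BF tongue and 6.77, 6.21 and 6.86 in BG tongue. In longissimus dorsi Vwf was 6.89, 5.51, 6.66, 6.15 and 6.35 in BF, 6.05, 6.24, 6.36, 5.41 and 6.81 in BG and 7.07, 6.46, 6.93, 6.45 and 6.52 in FC. BF and BG overlapped widely in this muscle. The genes whose 6 centred group means were most like those of Vwf were Fnbp4, Kat2a and Zfp46, with root mean square differences of 0.020, 0.0281 and 0.0512.

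For the other members the group means spanned less than 1. Tek spanned least, 0.34, with its highest mean in BG tongue and its lowest in BF tongue. Cdh5, Tie1, Pecam1 and the lead probe set of Flt1 were highest in BF longissimus dorsi, Angpt1 and both Vegfa probe sets in BG longissimus dorsi, and Kdr in FC tongue. The lowest mean was in BG tongue for Cdh5 1433956_at, Kdr, Tie1, Angpt1, Vegfa 1451959_a_at and all but 1 of the Flt1 and Eng probe sets. Of the 75 gaps between neighbours in the orders of the 6 group means, Vwf included, 57 were smaller than the SD of the probe set within groups. That SD was 0.150 to 0.274 for all but Vwf.

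Genes of the same pathways outside the 10 were read as well. Lists of ligands and receptors, endothelial genes, Notch genes, inhibitors and hypoxia regulators were taken with 1 probe set per gene. In BF vs. BG of longissimus dorsi 1 of 21 other ligands and receptors rose, where 6.41% of all probe sets did. This was Vegfb, which encodes a ligand of Flt1 tied to fatty acid handling. It rose by 0.43 (adjusted p = 0.0374), and 8 of 33 alternatives lost the call, among them longissimus dorsi fitted alone. In tongue Vegfb was 9.56, 9.33 and 9.47 in BF and 8.38, 8.71 and 8.49 in BG, and rose by 0.93 (SE 0.168, adjusted p = 0.0136). It was 1 of 21 to pass there, against 0.826% of all probe sets. BF and BG did not overlap there, and this call was lost without BF replicate 1 or 3 or BG replicate 1 (adjusted p = 0.0778, 0.0889 and 0.0956).

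In BF vs. BG of longissimus dorsi 1 of 27 other endothelial genes fell, near the 3.83% of all probe sets that did. This was Cd34, a surface protein of capillary endothelium and of fibroblast-like progenitors. It was 8.92, 8.06, 8.88, 8.26 and 8.76 in BF and 9.60, 9.52, 9.07, 9.04 and 9.89 in BG. The groups did not overlap, and Cd34 fell by 0.85 (adjusted p = 0.00467). The list as a whole had a median change of 0.02. In BF vs. FC 1 of 27 rose, where 3.66% of all probe sets passed. This was Cldn5, which seals endothelial junctions, with a rise of 1.04 (adjusted p = 0.00793). It read 8.25, 7.22, 7.41, 7.82 and 8.27 in BF and 7.18, 6.83, 6.81, 6.18 and 6.76 in FC. All BF values were above all FC values, and against BG the difference of 0.66 fell short of passing (adjusted p = 0.0505). In FC vs. BG Icam2, an endothelial adhesion molecule, fell by 0.43 (adjusted p = 0.0355), which 5 of 33 alternatives lost. It was 1 of 27 to pass, against 8.95% of all probe sets. In tongue 0 of the 27 passed in limma in BF vs. BG, FC vs. BG or BF vs. FC, with 3, 4 and 6 at an unadjusted p under 0.05, which 15.4%, 23.3% and 16.1% of all probe sets reached, and the list medians there were 0.03, 0.00 and -0.02.

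Angptl4, which inhibits lipoprotein lipase and is induced by fasting, had the largest change of the pathway genes that passed between BF and FC in longissimus dorsi. It was 8.87, 8.65, 7.95, 8.56 and 7.46 in BF, 8.52, 7.93, 9.46, 8.21 and 7.05 in BG and 7.61, 6.54, 6.22, 6.56 and 6.63 in FC. FC replicate 1 overlapped with the lowest sample of BF and of BG, and the other 4 FC samples lay below all of them. The change was 1.59 in BF vs. FC (adjusted p = 0.0192) and -1.52 in FC vs. BG (adjusted p = 0.0162), while BF vs. BG gave 0.06. Without FC replicate 3 neither passed (adjusted p = 0.0634 and 0.051), and BF vs. FC did not pass without BF replicate 4 (adjusted p = 0.0555) or without moderation (adjusted p = 0.0541). The second Angptl4 probe set, 1453410_at, gave 0.15 and -0.11 and did not pass.

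Cd36, a fatty acid transporter and receptor of the inhibitor thrombospondin, followed the same order. It fell by 0.71 in FC vs. BG (adjusted p = 0.0209) and rose by 0.73 in BF vs. FC (adjusted p = 0.0272), and 3 and 8 of 33 alternatives lost these calls. A second Cd36 probe set, 1450883_a_at, gave -0.84 and 1.04 and passed, and the third gave -0.55 and 0.44 and did not. Of the 11 inhibitors, Cd36 among them, 2 passed in FC vs. BG of longissimus dorsi and 2 in BF vs. FC. Of all probe sets 8.95% and 3.66% passed there. In FC vs. BG of tongue 1 of the 11 passed, against 9.45% of all probe sets. Sema3a fell in BF vs. FC of longissimus dorsi by 0.59 (adjusted p = 0.0352), a call that 9 of 32 alternatives lost. Its other probe sets gave -0.32 and 0.03. Timp3 rose in FC vs. BG of both muscles, by 0.41 and 0.56, but its 4 probe sets disagreed, as 1419088_at gave -0.24 and -0.36 in the same comparisons and rose in BF vs. FC, by 0.72 and 0.82 (adjusted p = 0.00293 and 0.021). The FC vs. BG calls, of the lead probe set 1449335_at, were each lost in 11 of 33 alternatives.

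Among 17 hypoxia and PGC-1alpha genes 2, Epas1 and Arnt, rose in BF vs. BG of longissimus dorsi, while 6.41% of all probe sets rose. Epas1 encodes HIF-2alpha, the oxygen-regulated factor of endothelium, and Arnt its partner. Epas1 was 6.14, 6.45, 6.54, 6.62 and 6.51 in BF and 6.15, 6.07, 6.26, 6.07 and 5.82 in BG, and rose by 0.38 (adjusted p = 0.0139). The lowest BF sample lay among the BG samples. Epas1 was also higher in BF than in FC, by 0.42 (adjusted p = 0.0134). Arnt rose by 0.34 in both of its probe sets (adjusted p = 0.0149 and 0.0405).

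Ppargc1a, the coactivator PGC-1alpha, which can induce Vegfa in muscle, was highest in FC. It was 9.96, 10.01, 9.89, 10.52 and 9.87 in FC, 9.09, 9.39, 9.55, 9.20 and 9.10 in BF and 9.64, 9.38, 9.68, 9.44 and 9.03 in BG. All FC values were above the other groups. The differences were 0.61 in FC vs. BG (adjusted p = 0.0121) and -0.78 in BF vs. FC (adjusted p = 0.00377), and -0.17 in BF vs. BG. Its 4 other probe sets had the same signs, 0.39 to 0.60 and -0.89 to -0.49. Esrra, its partner receptor, changed by 0.34 and -0.44 in the first 2 of these comparisons (adjusted p = 0.0398 and 0.0164). The former was lost in 10 of 33 alternatives, among them the muscle fitted alone (adjusted p = 0.0507), quantile normalization within the muscle (0.0948) and median centring (0.0687), and the latter only without FC replicate 3 (adjusted p = 0.0613). Egln1, an oxygen sensor, rose by 0.34 in FC vs. BG, and its second probe set gave 0.05. In FC vs. BG of longissimus dorsi 3 of the 17 genes passed, Ppargc1a, Esrra and Egln1. In BF vs. FC 3 of 17 passed, Ppargc1a, Esrra and Epas1. Of all probe sets 8.95% and 3.66% passed in these comparisons. The highest mean in longissimus dorsi was in BG for both Vegfa probe sets, in FC for Ppargc1a and in BF for Epas1. Not every difference between the groups passed for these genes, and a link between them was not tested.

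In FC vs. BG of tongue, 3 of 21 other ligands and receptors rose, as did 1 of 10 Notch genes, where 9.45% of all probe sets passed and 5.13% rose. Nrp2, a co-receptor for VEGF-C and semaphorins, was 9.33 and 9.05 in FC and 8.45, 8.10 and 8.33 in BG, and rose by 0.89 (adjusted p = 0.00118). The BF samples, at 8.04, 8.50 and 8.05, lay below FC as well, with -0.99 in BF vs. FC (adjusted p = 0.00118). In longissimus dorsi all 15 samples lay between 6.82 and 7.26. The difference between the muscles passed for Nrp2, at -0.87 in FC vs. BG (adjusted p = 0.0359) and 1.03 in BF vs. FC (adjusted p = 0.0244). All 4 Nrp2 calls were lost without FC tongue replicate 1 (adjusted p = 0.07, 0.0721, 0.438 and 0.461).

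Flt4, the lymphatic VEGF receptor, rose by 0.73 (adjusted p = 0.0197), Ptprb, the phosphatase that restrains Tek, by 0.59 (adjusted p = 0.0365) and the Notch ligand Jag2 by 0.60 (adjusted p = 0.0164). The second probe sets of Flt4 and Jag2 gave -0.23 and 0.12. Bnip3, a hypoxia target that acts in mitophagy, fell by 0.69 (adjusted p = 0.00552). It was 1 of 17 hypoxia genes to pass, where 9.45% of all probe sets passed and 4.33% fell. Without FC replicate 1 none of Flt4, Ptprb, Jag2 and Bnip3 passed (adjusted p = 0.142, 0.218, 0.156 and 0.122).

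Abcc9, a subunit of the ATP-sensitive potassium channel of pericytes and muscle, was a marker gene outside these lists that was higher in BF in all 4 comparisons with ground groups. The change was 0.71 and 0.51 against BG and FC in longissimus dorsi (adjusted p = 0.000888 and 0.0196) and 0.65 and 0.98 in tongue (adjusted p = 0.0487 and 0.00419). The tongue call against BG was lost in 22 of 33 alternatives. It was 1 of 11 pericyte and smooth muscle markers to rise in each. Of all probe sets 10.2%, 3.66%, 0.826% and 2.24% passed in these comparisons, in the same order. The median of the list was -0.04 in BF vs. BG of longissimus dorsi. Tagln, a smooth muscle gene, fell by 0.36 there (adjusted p = 0.0366), a call lost in 6 of 33 alternatives, each of which leaves out 1 array (adjusted p up to 0.116).

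**Figure D5:**
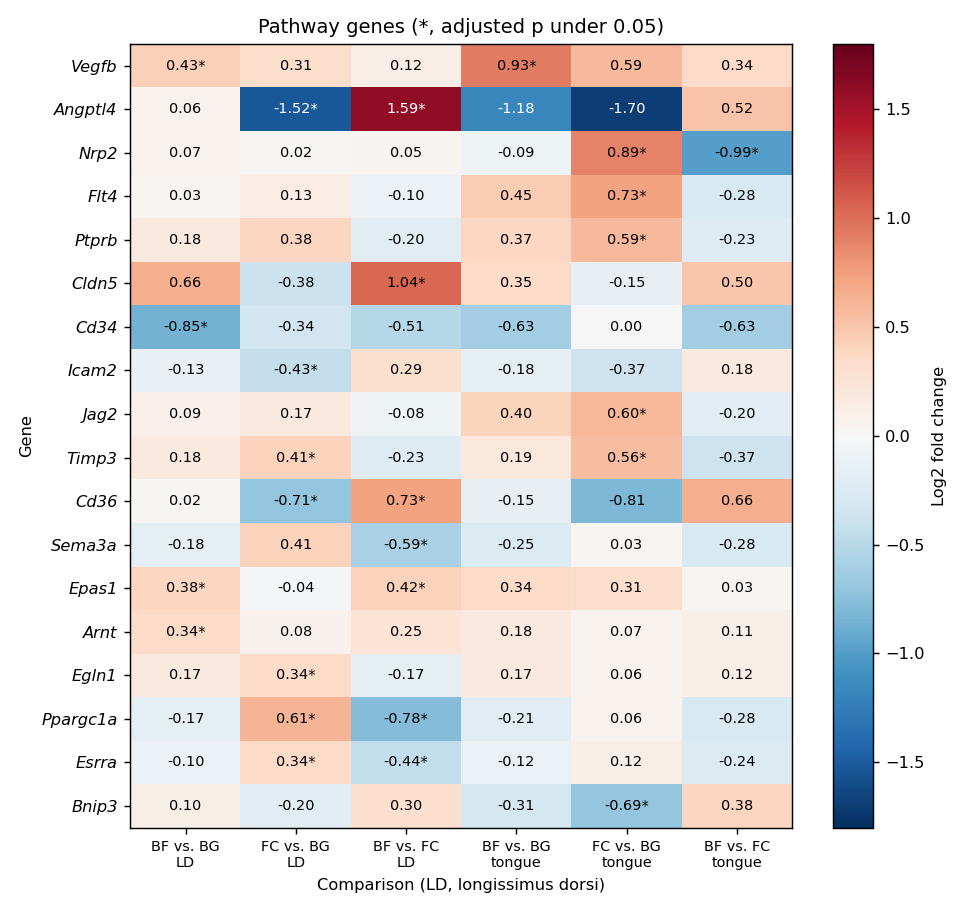
Log2 fold changes of the 18 pathway genes outside the 10 that passed between housings in at least 1 muscle, by comparison (columns); colour and number give the change of the lead probe set and an asterisk marks an adjusted p under 0.05. Angptl4 and Ppargc1a have opposite signs in FC vs. BG and BF vs. FC of LD, and Nrp2 changes in tongue.

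Between the muscles the pathway lists split in both directions. In the ligand and receptor list 7 of 21 were higher and 4 lower in longissimus dorsi, with Fgf1 higher by 1.23 and Nrp2 and Vegfd lower, at -1.50 and -1.86. Of the 27 endothelial genes 12 were higher and 4 lower, led by S1pr1 (0.79), Fabp4 (1.25) and Adgrl4 (0.53). Notch1 (-1.83), Hes1 (-1.36) and Jag1 (-1.75) were lower, and 2 of 10 Notch genes were higher and 5 lower. Adamts1 (1.01) and Thbs2 (1.65) were higher and Col18a1 (-0.81) lower among 11 inhibitors, of which 5 were higher and 1 lower. Of 17 hypoxia genes 8 were higher and 3 lower, with Ldha (1.20) and Bnip3 (1.04) higher and Hif1a (-1.44) lower. These counts stand against the 69.8% of all probe sets that passed.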

How the data were processed

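Total RNA was labelled and hybridized to Affymetrix Mouse Genome arrays, 1 per sample, 23 in all. The authors used Partek Genomics Suite to make the deposited log2 values by RMA (Robust Multichip Average), which corrects background, quantile-normalizes over arrays and summarizes probes by median polish. Quantile normalization of the probe signals removes most of a shift shared by all genes, although array medians of the summarized values still ranged from 6.42 to 6.61. No further normalization or filter was applied. Scanner intensities were not used here, so signal over background is unknown, and the number of arrays limits the precision.

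Samples were grouped by the labels. The 22626 probe sets were fitted in limma 3.58.1 (R 4.3.3) with 6 groups of muscle and housing, 17 residual degrees of freedom and eBayes moderation (prior degrees of freedom 5.12); the p values of each comparison were adjusted after Benjamini and Hochberg, with all probe sets included. Labels do not say that samples were separate mice, so p-values measure the spread between these samples, which may be partly technical.

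Genes were named from the platform annotation where a probe set named 1 gene (20380 probe sets). The 10 members and the pathway and marker lists were chosen with earlier results of these data known. Every probe set of a member is described. From each pathway list, genes that passed are named, up to 3 per comparison by adjusted p or all where 5 or fewer passed. Marker lists were averaged per array over lead probe sets. Genes most like a member were sought by the centred group means and named where these spanned over 1. Alternatives were each muscle alone, no moderation, trend and robust moderation, brighter probe sets, quantile normalization within muscle, median centring, array weights, 1 probe set per gene, a replicate block and leaving out each array; leaving out the most scattered array of each longissimus dorsi group and the tests between probe sets were added after seeing the data. Promoters are from RefSeq (GRCm38.p6).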

Additional observations from a re-analysis of the deposited data

Results flagged for a closer look

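In longissimus dorsi, where groups held 5 samples, 99 groups of values were checked for a sample far from the others by Dixon's test, and 7 were found, where chance gives about 1 in 20. Of these 5 were among 45 groups of the 15 probe sets. Pecam1 in BF replicate 2 was 6.85, below the next value of 7.45, and Pecam1 in FC replicate 4 was 7.37, above the next value of 7.18. Cdh5 1422047_at was 4.74 in BG replicate 2, above 4.50. Eng 1432176_a_at was 7.04 in BF replicate 3, below 7.35, and Flt1 1454037_a_at was 4.73 in FC replicate 4, below 4.98. Among the other pathway genes, Arnt was 5.84 in FC replicate 3, below 6.01, and Ppargc1a was 10.52 in FC replicate 4, above 10.01.

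Nrp2 differed between the muscles in its change with housing. The change in longissimus dorsi minus that in tongue was -0.87 in FC vs. BG (adjusted p = 0.0359 in limma) and 1.03 in BF vs. FC (adjusted p = 0.0244), with both FC tongue samples above the other 6 tongue samples.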

How the results depend on the processing

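The 16 calls of the 15 probe sets, between housings and between muscles, had 504 values under the alternatives. Of these 458 kept the call, 46 no longer passed the threshold and 0 had the other sign. Throughout, 8 of the 16 passed. Of the calls between housings only that of Cdh5 1433956_at in BF vs. BG of longissimus dorsi did so. Between housings the call was lost in 3 of 32 alternatives for Tie1 and 5 of 33 for Vegfa 1420909_at. It was lost in 17 of 31 for Cdh5 1422047_at, 8 of 31 for Flt1 1454037_a_at and 2 of 33 for Kdr. For 51 calls of other named genes, 1502 of 1660 values kept the call, 158 lost it and 0 changed sign. Of 326 counts of passing probe sets 282 stayed within 1.5 times and 44 moved. Leaving out 1 array gave 1 to 3 in BF vs. BG of longissimus dorsi (1 without BG replicate 4), 0 to 3 in FC vs. BG, 0 to 2 in BF vs. FC, 0 to 2 in FC vs. BG of tongue (0 without BG replicate 2 or FC replicate 1), 8 to 11 between the muscles and 0 in the other 2 tongue comparisons and the 3 tests of a difference between the muscles. FC vs. BG of longissimus dorsi gave 2 with median centring, 3 with array weights and 3 without the most scattered arrays. BF vs. FC there gave 0 with the muscle alone, with brighter probe sets and with 1 probe set per gene, and 1 without the most scattered arrays. In tongue FC vs. BG gave 2 with the muscle alone, with brighter probe sets and without the most scattered arrays, and 3 with array weights; array weights gave 1 in the BF and BG comparison and 3 in that of BF and FC. Between the muscles 6 passed with brighter probe sets and with 1 probe set per gene, which test 9 and 10 of the 15. Other causes were not tested.

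Samples with the same replicate number correlated at -0.218 to 0.545 (median 0.103) over 22 pairs of the same muscle, against a median of -0.046 over 74 pairs with other numbers. Not every pair was over 0.1, so the numbers were not taken as pairs and the main fit treats arrays as independent. This rule does not show that samples of the same number share nothing. With the replicate block FC vs. BG of longissimus dorsi gave 1, and no other count moved; the calls of Nrp2 for the difference between muscles were lost (adjusted p = 0.0577 and 0.104), as was that of Flt1 1451756_at between the muscles (adjusted p = 0.0503). In longissimus dorsi the own number correlated best in 13 of 30 cases, each a choice among the 5 samples of another group. Whether samples of the same number shared a batch was not tested. The number of arrays, down to 2, limits the tongue results.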
